A study of Homo sapiens with 12 samples.

Results

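ABCB1 encodes P-glycoprotein (P-gp), a drug efflux pump of the plasma membrane, and lies on chromosome 7q21 among genes of unrelated function. The 10 genes described here are ABCB1 and 9 neighbours (ABCB4, RUNDC3B, STEAP4, ADAM22, CROT, DMTF1, SRI, SLC25A40 and DBF4), of 58735 genes in the deposited tables. They were picked by hand, by position around ABCB1 and with the measured difference between resistant and parental cells known, so that their values in that comparison are a description and were not tested. All 10 symbols were matched to 1 Ensembl gene of GENCODE 29 each.

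P-gp belongs to the ATP-binding cassette (ABC) transporters, which use ATP to move substrates across membranes. It carries many unrelated drugs out of the cell, anthracyclines such as epirubicin among them, and a high level is a known feature of multidrug-resistant tumour lines. In such lines the gene is known to be raised alone or together with its neighbours. DNA copy number was not measured in these libraries.

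The study compared SK-BR-3, an established HER2-positive human breast cancer line, with SK/EPI, a line made from it by long exposure to rising doses of epirubicin. SK/EPI cells were also transfected, with Lipofectamine RNAiMax, and sequenced 48 h later: SK/EPI-siBCRP received siRNA to BCRP, and SK/EPI-siNC the control siRNA. BCRP is the protein of ABCG2, another ABC transporter. Each of the 4 groups had 3 poly-A selected libraries, SK/EPI was 1 derived line, and the control siRNA group shared the drug history of the BCRP siRNA group. The labels number the libraries without naming separate cultures, so p-values measure only the spread between these samples, which may be technical.

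On the GRCh38 build the 10 genes spanned 1154.5 kb, chr7:87152361-88306891. In the order of the chromosome they were DMTF1 (chr7:87152361-87196337, plus strand), CROT (chr7:87345681-87399795, plus), ABCB4 (chr7:87401697-87480435, minus), ABCB1 (chr7:87503633-87713323, minus) and RUNDC3B (chr7:87627548-87832296, plus). These were followed by SLC25A40 (chr7:87833568-87876357, minus), DBF4 (chr7:87876216-87909541, plus), ADAM22 (chr7:87934143-88202889, plus), SRI (chr7:88205118-88226993, minus) and STEAP4 (chr7:88270892-88306891, minus). ABCB1 and RUNDC3B ran in opposite directions with spans that overlapped by 85776 bp, but they shared 0 exonic bases. SLC25A40 and DBF4 lay head to head and shared 142 exonic bases. STEAP4 shared 782 exonic bases, 6.95% of its own, with an antisense RNA, AC003991.1. The library kit does not mark strand, so reads in such shared bases cannot be told apart. The same holds for intronic reads of one gene that fall on exons of the other. This concerns ABCB1 with RUNDC3B, and STEAP4 with AC003991.1, whose spans overlapped by 33476 bp.

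**Figure D1:**
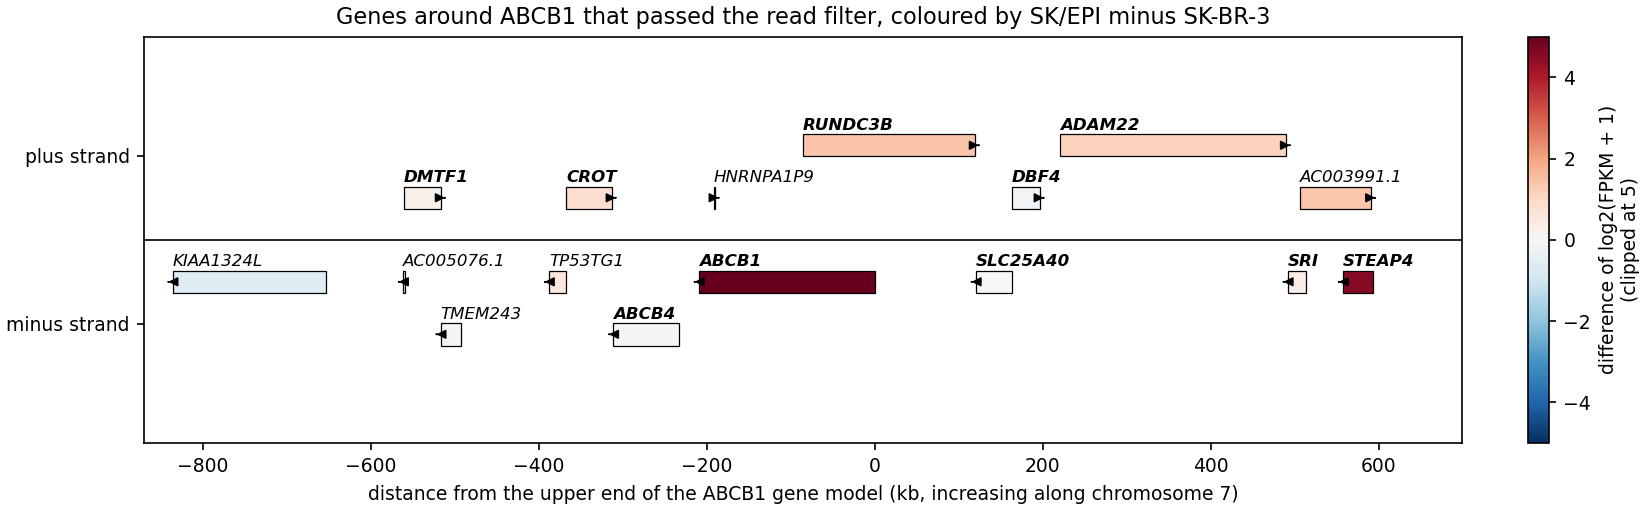
Map of the 16 genes within 2 Mb of ABCB1 that passed the read filter, by strand (y axis) and by distance from the upper end of ABCB1 in kb (x axis), with arrows in the direction of transcription and the 10 chosen genes in bold. Colour gives SK/EPI minus SK-BR-3 on the log2(FPKM + 1) scale, clipped at 5: ABCB1 (8.35, beyond the scale) and STEAP4 (4.55) were darkest, and SLC25A40 (-0.02) and DBF4 (-0.17), which lie between them, were nearly white.

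RefSeq (GRCh38.p14) gave promoter windows, from 250 bases before to 50 bases after a start site, for 9 of the 10 genes, not for ABCB4. The windows of the 4 genes with the largest differences between SK/EPI and SK-BR-3 are shown, to set the start sites of genes that differed beside the shared start region of SLC25A40 and DBF4, whose SK/EPI and SK-BR-3 libraries overlapped. Each is written 5′ to 3′ on the strand of its gene, with capitals at the CCAAT box (letters CCAAT), the GC box (letters GGGCGG) and the TATA box (letters TATAAA), each searched on both strands.
ABCB1, first window (chr7:87600835-87601134, minus strand): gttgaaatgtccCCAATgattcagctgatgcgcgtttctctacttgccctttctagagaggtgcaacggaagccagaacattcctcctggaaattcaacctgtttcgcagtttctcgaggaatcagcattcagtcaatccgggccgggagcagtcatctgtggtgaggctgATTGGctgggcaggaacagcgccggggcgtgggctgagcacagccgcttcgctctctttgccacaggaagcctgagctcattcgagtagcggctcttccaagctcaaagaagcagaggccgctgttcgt
ABCB1, second window (chr7:87713246-87713545, minus strand): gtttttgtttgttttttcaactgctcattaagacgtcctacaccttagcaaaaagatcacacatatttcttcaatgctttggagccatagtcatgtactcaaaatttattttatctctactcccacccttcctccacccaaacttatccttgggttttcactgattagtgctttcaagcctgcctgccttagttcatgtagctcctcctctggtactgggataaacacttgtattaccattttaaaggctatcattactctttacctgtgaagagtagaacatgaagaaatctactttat
RUNDC3B (chr7:87628148-87628447, plus strand): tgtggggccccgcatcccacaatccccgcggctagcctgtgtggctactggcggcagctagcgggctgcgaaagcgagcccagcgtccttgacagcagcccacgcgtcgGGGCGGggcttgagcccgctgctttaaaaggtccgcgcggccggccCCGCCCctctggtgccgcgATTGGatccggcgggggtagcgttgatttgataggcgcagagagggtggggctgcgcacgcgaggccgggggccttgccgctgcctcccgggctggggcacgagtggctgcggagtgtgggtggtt
STEAP4 (chr7:88306845-88307144, minus strand): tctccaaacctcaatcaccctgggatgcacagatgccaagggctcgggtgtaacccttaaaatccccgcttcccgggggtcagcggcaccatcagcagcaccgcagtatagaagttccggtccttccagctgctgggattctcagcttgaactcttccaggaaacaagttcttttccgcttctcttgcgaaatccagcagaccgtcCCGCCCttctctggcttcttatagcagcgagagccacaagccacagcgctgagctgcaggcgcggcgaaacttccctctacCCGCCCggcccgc
ADAM22 (chr7:87934001-87934300, plus strand): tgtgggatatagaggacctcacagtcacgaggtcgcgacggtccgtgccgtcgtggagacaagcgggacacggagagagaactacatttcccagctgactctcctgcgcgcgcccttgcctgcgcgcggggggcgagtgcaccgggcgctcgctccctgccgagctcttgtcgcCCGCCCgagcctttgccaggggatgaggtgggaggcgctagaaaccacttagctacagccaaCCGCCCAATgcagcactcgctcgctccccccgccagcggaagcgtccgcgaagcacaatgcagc
SLC25A40 and DBF4, overlap of both windows (chr7:87876311-87876542, plus strand): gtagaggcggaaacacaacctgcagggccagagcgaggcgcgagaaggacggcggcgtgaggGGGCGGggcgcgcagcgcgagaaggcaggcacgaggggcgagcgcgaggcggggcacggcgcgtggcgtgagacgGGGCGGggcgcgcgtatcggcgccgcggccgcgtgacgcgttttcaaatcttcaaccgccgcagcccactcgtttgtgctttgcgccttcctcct

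The first ABCB1 window held 2 CCAAT matches, 238 bases upstream in the forward and 79 bases upstream in the reverse orientation, and no GGGCGG or TATAAA match. None of the 3 motifs was in the second ABCB1 window, whose start site lies 112.4 kb from the first and whose GC content was 37.7% against 55.3%. The RUNDC3B start site fell between the 2 ABCB1 start sites, 27.5 kb from the first. RUNDC3B had 1 CCAAT and 2 GGGCGG matches, STEAP4 had 2 GGGCGG matches, and ADAM22 had 1 CCAAT and 2 GGGCGG matches, of which the CCAAT and 1 GGGCGG shared bases. SLC25A40 and DBF4 start 133 bp apart in opposite directions and had the same 2 GGGCGG matches in their overlap. Of 35116 RefSeq windows of this length, 34.6% held CCAAT, 45.0% held GGGCGG and 11.5% held TATAAA, and the median GC content was 58.7%. A match is a stretch of letters and not a measured site.

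The study used 2 siRNAs against BCRP, and the sources used here do not say which was given to the sequenced cells. Their antisense strands are shown with the seed, bases 2 to 8, in capitals, because the seed can also reach other transcripts.
siBCRP #1: aUAACCAGcugauucaaaguauccc
siBCRP #2: uAAUGAUGuccaagaagaagucugc
Both matched the longest ABCG2 transcript of GENCODE 29 over all 25 bases, at positions 1368 to 1392 for siBCRP #1 and 1417 to 1441 for siBCRP #2. The longest run shared with any of the 10 genes was 9 bases for siBCRP #1 and 12 bases, in ABCB1, for siBCRP #2. The complement of the seed of siBCRP #1 occurred in 2 of the 10 (ADAM22 and STEAP4), and in 13.9% of 19669 protein-coding genes. That of siBCRP #2 occurred in 4 (ABCB1, ADAM22, DMTF1 and STEAP4) and in 24.7% of these genes. Matches were sought over the whole longest protein-coding transcript of each gene, without regard to its length. That length was 9988 bases for STEAP4, 9334 for ADAM22, 4778 for ABCB1 and 4038 for DMTF1, so nothing is read from these shares.

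Each library held between 15830381 and 20545811 reads assigned to genes, and mitochondrial genes took 3.58% to 5.38% of reads, 5.10% to 5.38% in SK/EPI and 4.18% to 4.23% in SK-BR-3. The 7 luminal breast markers went different ways. KRT8 was at 733 to 1004 FPKM and EPCAM at 73.3 to 96.1 FPKM over all 12 libraries, and CDH1 was at 0.121 FPKM or less in every library. From SK-BR-3 to SK/EPI, KRT8 (733 to 793 against 870 to 928 FPKM) and KRT18 (349 to 367 against 578 to 614 FPKM) were higher without overlap. ERBB2 (652 to 663 against 129 to 136 FPKM), KRT19 (1581 to 1719 against 498 to 519 FPKM) and GRB7 (106 to 115 against 44.3 to 46.8 FPKM) were lower, also without overlap. Of the 7 markers of other cell types, DCN, LUM and PTPRC were at 0.0669 FPKM or less, PECAM1 at 0.229 FPKM or less, CD3E at 0.506 FPKM or less and COL1A1 at 1.60 FPKM or less throughout. The summed level of the 7 luminal markers was 3536 to 3732 FPKM in SK-BR-3, 2206 to 2324 in SK/EPI, 2610 to 2658 in SK/EPI-siNC and 2180 to 2219 in SK/EPI-siBCRP. In the same order of groups the 2 endothelial markers, nearly all of it CDH5, a cadherin, summed to 6.61 to 6.90, 26.9 to 28.0, 13.8 to 14.1 and 22.2 to 22.5 FPKM, and the 3 fibroblast markers to 1.57 to 1.64, 0.766 to 0.811, 1.18 to 1.23 and 1.06 to 1.07 FPKM. The 2 leukocyte markers summed to 0.0839 to 0.545 FPKM over all libraries. The part of these markers in the results below was not tested.

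In SK/EPI cells ABCB1 went from almost undetected to among the most abundant mRNAs, STEAP4 was 33.8-fold higher, RUNDC3B went from 1 read in all to a low level, and ADAM22, detected in every SK-BR-3 library, was 10.7-fold higher at a low level. CROT, DMTF1 and SRI differed less, and ABCB4, SLC25A40 and DBF4 had overlapping libraries. Between the 2 lines, 7 of the 10 genes had all 3 SK/EPI libraries above all 3 SK-BR-3 libraries and 0 had all below. Among all 15823 genes with enough reads, 39.4% were higher without overlap and 38.3% were lower without overlap. Since this contrast was known when the genes were picked, nothing is read from their share. In bulk RNA, fewer cells expressing a gene and less RNA per cell cannot be told apart.

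ABCB1 had 0, 0 and 2 reads in the 3 SK-BR-3 libraries, or 0, 0 and 0.0181 FPKM, where 3 reads would be 0.0271 to 0.0326 FPKM. FPKM gives sequenced fragments relative to exon length and to a scale set for each library. SK/EPI libraries had 36938, 34408 and 35622 reads, or 324.6, 327.9 and 327.6 FPKM. The SK/EPI mean was 326.7 ± 1.83 FPKM (SD, n = 3), and the groups were far apart. Pooled over libraries the ratio was 50230, with a 95% counting interval of 13910 to 414800 that covers counting error only. ABCB1 ranked between 70 and 73 among all genes by FPKM in the SK/EPI libraries and took 0.200% to 0.203% of their reads. On the log2(FPKM + 1) scale the difference was 8.35 (SE 0.03), which understates the ratio of a gene near 0.

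STEAP4, a metalloreductase that reduces iron and copper at cell membranes, was measured at 2.19, 2.02 and 2.23 FPKM in SK-BR-3. In SK/EPI it reached 72.4, 73.5 and 72.1 FPKM. The SK/EPI mean, 72.7 ± 0.763 FPKM, was 33.8 times the SK-BR-3 mean of 2.15 ± 0.109 FPKM (SD, n = 3), and the log2 difference was 4.55 (SE 0.04). It is the farthest of the 10 genes from ABCB1 by the gap between gene models, 557.6 kb. AC003991.1, antisense to it, was at 0.0391, 0.0458 and 0.0434 FPKM in SK-BR-3 and at 1.95, 1.54 and 1.74 FPKM in SK/EPI.

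RUNDC3B, which encodes a RUN domain protein and starts inside the ABCB1 span, had 1, 0 and 0 reads in SK-BR-3 and 149, 162 and 138 reads in SK/EPI. Its SK/EPI level was 1.61, 1.90 and 1.56 FPKM. The pooled ratio was 421.7, with a 95% counting interval of 75.3 to 16690 that covers counting error only. Intronic reads of ABCB1 were not separated from those of RUNDC3B. ADAM22, a catalytically inactive member of the ADAM family known as a neuronal receptor of LGI1, was at 0.150, 0.150 and 0.125 FPKM in SK-BR-3 and at 1.57, 1.42 and 1.55 FPKM in SK/EPI. Its means differed 10.7-fold, with a log2 difference of 1.14 (SE 0.05). Both genes stayed under 2 FPKM in all libraries, so ABCB1 was the only one of the 10 above 100 FPKM in SK/EPI. ABCB1 and RUNDC3B were under 10 reads in every SK-BR-3 library and passed the read filter of this table through SK/EPI alone, as did HNRNPA1P9 and AC003991.1 below.

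CROT, the peroxisomal carnitine octanoyltransferase, was at 4.40, 4.14 and 4.85 FPKM in SK-BR-3 and at 8.14, 9.54 and 8.33 FPKM in SK/EPI, a ratio of 1.94. DMTF1, a cyclin D-binding transcription factor, was at 4.80, 4.29 and 4.44 FPKM in SK-BR-3 and at 6.24, 5.69 and 5.58 FPKM in SK/EPI, a ratio of 1.29. SRI, which encodes the calcium-binding protein sorcin, was at 16.1, 18.4 and 16.4 FPKM in SK-BR-3 and at 20.47, 20.97 and 22.45 FPKM in SK/EPI, a ratio of 1.25. In these genes every SK/EPI library was above every SK-BR-3 library, by small margins in DMTF1 and SRI.

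ABCB4, the ABC transporter that flips phosphatidylcholine in liver cells and the closest relative of ABCB1, had 15, 20 and 18 reads in SK-BR-3 and 31, 16 and 28 reads in SK/EPI. Its level was 0.122, 0.143 and 0.122 FPKM against 0.205, 0.115 and 0.194 FPKM, so the groups overlapped although the gene model ends 23.2 kb from ABCB1. How reads that fit several positions were counted is not given in the sources used here, so a share of its few reads could belong to a related gene such as ABCB1. SLC25A40, a mitochondrial carrier linked to glutathione import, was at 5.79, 6.43 and 6.67 FPKM in SK-BR-3 and at 6.31, 6.37 and 5.95 FPKM in SK/EPI. DBF4, the activator of the replication kinase CDC7, was at 14.0, 12.3 and 15.8 FPKM against 11.9, 12.1 and 12.9 FPKM. Both had overlapping libraries, with log2 differences of -0.02 (95% interval -0.15 to 0.12) for SLC25A40 and -0.17 (95% interval -0.36 to 0.02) for DBF4.

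**Figure D2:**
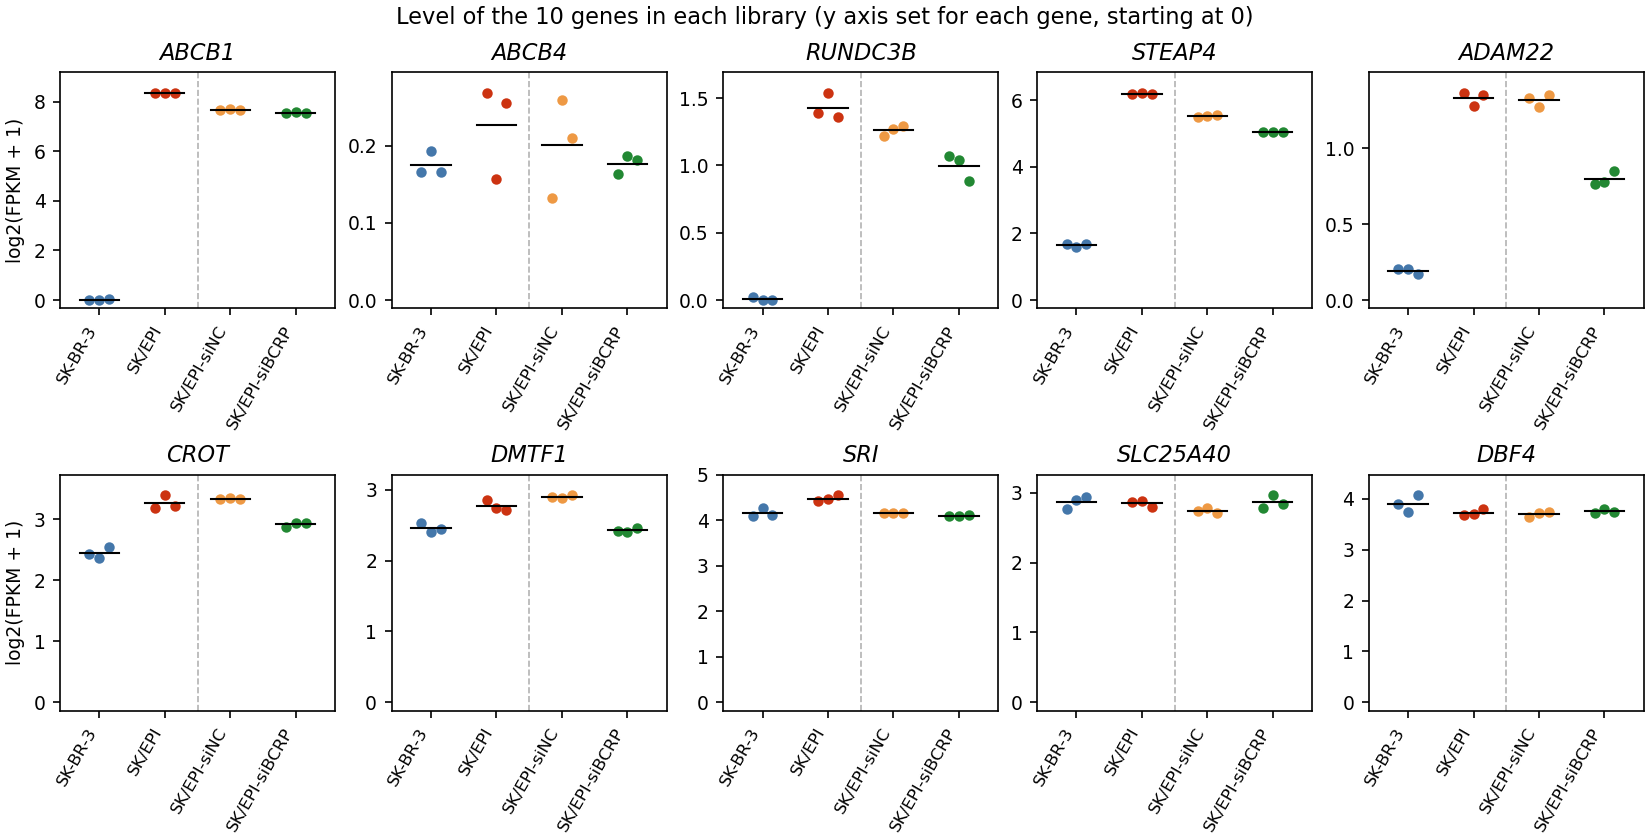
Level of each of the 10 genes, as log2(FPKM + 1), in every library (points) of the 4 groups, with the group mean as a bar. The y axis is set for each gene from 0, and the dashed line separates the 2 tables, which may have been normalized separately. ABCB1, RUNDC3B, STEAP4 and ADAM22 are near 0 or low in SK-BR-3 and higher in the other groups, while SLC25A40 and DBF4 overlap between SK-BR-3 and SK/EPI.

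The order of the genes by FPKM differed between the lines. In SK-BR-3 it was SRI, DBF4, SLC25A40, DMTF1, CROT, STEAP4, ADAM22, ABCB4, ABCB1 and RUNDC3B, where DMTF1 with CROT, ADAM22 with ABCB4, and ABCB1 with RUNDC3B had overlapping libraries. In SK/EPI it was ABCB1, STEAP4, SRI, DBF4, CROT, SLC25A40, DMTF1, RUNDC3B, ADAM22 and ABCB4, where SLC25A40 with DMTF1 and RUNDC3B with ADAM22 overlapped. ABCB1 thus moved from rank 9 to rank 1 of the 10, and ABCB1 and STEAP4 also held ranks 1 and 2 in both siRNA groups.

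Within 2 Mb of either end of ABCB1 the annotation listed 39 genes, of which 16 passed the read filter, the 10 genes and 6 others. Their median log2 difference, SK/EPI minus SK-BR-3, was 0.452, and that of all genes tested was 0.008. Nothing is read from this, since 10 of the 16 genes were picked with the contrast known. In addition, 4 of the 16 (ABCB1, RUNDC3B, HNRNPA1P9 and AC003991.1) reached the read minimum in SK/EPI libraries only, where they are high. AC005076.1, with 10, 8 and 8 reads in SK-BR-3 and 16, 11 and 22 in SK/EPI, would not have passed on its SK-BR-3 libraries either. With at least 10 reads in every library the median was 0.312 over 11 genes. The median was 0.102 for the 35 genes within 5 Mb and 0.015 for the 60 genes within 10 Mb, both of which hold the same 16, and in the bands from 2 to 5 Mb it was -0.367 for 3 genes on lower and 0.020 for 16 genes on higher coordinates. Within 0.5 Mb, without STEAP4 and AC003991.1, it was 0.322 for 14 genes.

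Among the 6 other genes, HNRNPA1P9, a processed pseudogene inside ABCB1 that shares none of its exonic bases, had 0 reads in all SK-BR-3 libraries and 49, 41 and 31 reads in SK/EPI. Its SK/EPI level was at least 37.9-fold higher against a floor of 3 reads over the SK-BR-3 group. How reads that fit both this copy and its parent gene were counted is not given in the sources used here. HNRNPA1P9 also lies on the strand opposite to ABCB1, and intronic reads of ABCB1 were not separated from its own. The value is therefore uncertain. The lncRNA TP53TG1 was at 2.71, 3.68 and 3.23 FPKM in SK-BR-3 and at 5.14, 6.06 and 4.59 FPKM in SK/EPI. KIAA1324L, 443.9 kb away, was at 5.15, 5.07 and 5.48 FPKM in SK-BR-3 and at 3.11, 3.07 and 3.16 FPKM in SK/EPI, the only gene of the window with all SK/EPI libraries below SK-BR-3. TMEM243 and the antisense RNA AC005076.1 had overlapping libraries.

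**Figure D3:**
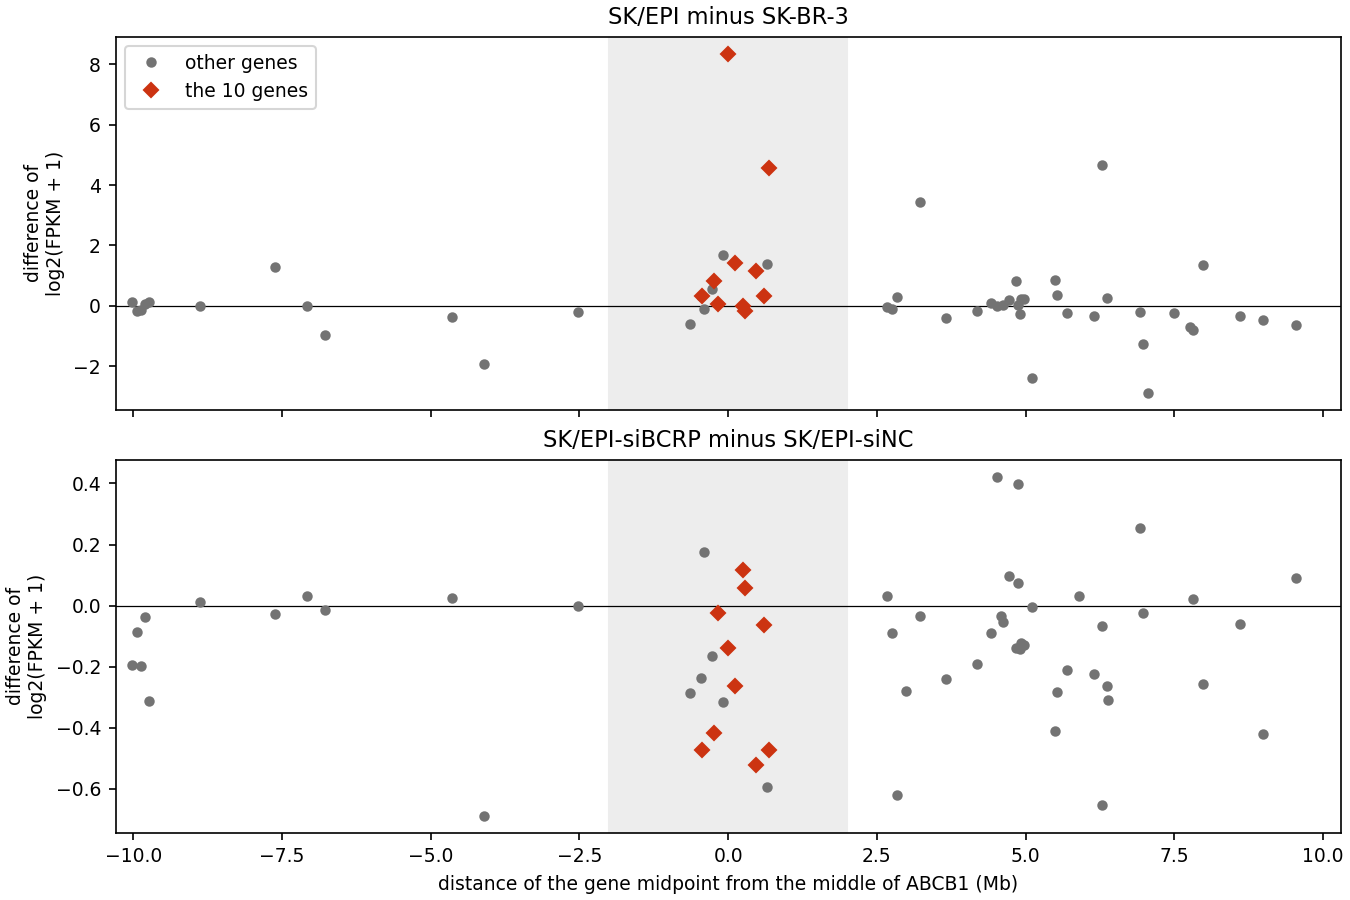
Difference of log2(FPKM + 1) of each tested gene (y axis) against its distance from the middle of ABCB1 in Mb (x axis), for SK/EPI minus SK-BR-3 (top) and SK/EPI-siBCRP minus SK/EPI-siNC (bottom; the y scales differ). Diamonds are the 10 chosen genes, circles other genes, and the grey band marks 2 Mb on either side; in the top panel ABCB1 (8.35) and STEAP4 (4.55) stand highest in the band, and genes near 0 lie between them.

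The siRNA comparison was not a ground for picking the genes and was tested with limma on log2(FPKM + 1). Earlier results of these data were nevertheless known when the genes and the tests were chosen. The counts and medians given for this comparison are therefore a description of these genes. ABCG2, the target, was at 32.5, 32.7 and 33.7 FPKM in SK/EPI-siNC and at 2.84, 3.47 and 2.91 FPKM in SK/EPI-siBCRP. It fell by 90.7% (log2 change -3.06, SE 0.06, adjusted p = 5.93e-07). Of the 10 genes, 6 were lower after the BCRP siRNA, 0 were higher and 4 did not pass an adjusted p of 0.05. Over all 16298 genes tested, 18.7% were called lower and 19.4% were called higher. The median change was -0.201 over the 10 genes and -0.004 over all genes.

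ABCB1 was at 205.7, 206.3 and 205.5 FPKM in SK/EPI-siNC and at 184.2, 189.9 and 186.1 FPKM in SK/EPI-siBCRP. The groups did not overlap, and the gene fell by 9.28%, with a log2 change of -0.14 (SE 0.02, adjusted p = 0.00177, limma with Benjamini-Hochberg adjustment). It had the smallest change of the 6 genes called. In SK/EPI-siBCRP it still ranked between 117 and 126 among all genes by FPKM, against 103 to 104 in SK/EPI-siNC.

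STEAP4 was at 43.9, 45.4 and 45.8 FPKM in SK/EPI-siNC and at 31.99, 32.21 and 32.28 FPKM in SK/EPI-siBCRP, and fell by 28.6% (log2 change -0.47, SE 0.02, adjusted p = 1.15e-05). ADAM22 went from 1.51, 1.42 and 1.55 FPKM to 0.695, 0.714 and 0.801 FPKM and fell by 50.6% (log2 change -0.52, SE 0.05, adjusted p = 0.000261). In both genes the libraries of the groups were clearly apart. RUNDC3B had 142, 127 and 135 reads in SK/EPI-siNC and 101, 112 and 77 reads in SK/EPI-siBCRP, or 1.32, 1.42 and 1.45 FPKM against 1.102, 1.057 and 0.846 FPKM. It fell by 28.3% (log2 change -0.26, SE 0.07, adjusted p = 0.017). These changes are on the log2(FPKM + 1) scale, which shrinks low genes such as ADAM22 and RUNDC3B. With a pseudocount of 0.01 the log2 change was -1.009 for ADAM22, -0.484 for RUNDC3B and -0.485 for STEAP4. The call on RUNDC3B was lost with no filter on low genes (adjusted p = 0.107) and without SK/EPI-siNC replicate 2 (adjusted p = 0.0501) or replicate 3 (adjusted p = 0.0544).

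CROT was at 9.14, 9.18 and 9.04 FPKM in SK/EPI-siNC and at 6.37, 6.72 and 6.66 FPKM in SK/EPI-siBCRP, and fell by 27.8% (log2 change -0.42, SE 0.03, adjusted p = 0.000102). DMTF1, at 6.49, 6.41 and 6.60 FPKM against 4.36, 4.31 and 4.52 FPKM, fell by 32.3% (log2 change -0.47, SE 0.04, adjusted p = 9.95e-05). For DMTF1 the SK/EPI-siBCRP level was close to that of SK-BR-3 in the other table, 4.40 ± 0.108 and 4.51 ± 0.260 FPKM (SD, n = 3). The tables may have been normalized separately, and these levels were not compared by a test. STEAP4, by contrast, remained at 32.2 FPKM against 2.15 FPKM in SK-BR-3.

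SRI was at 16.8, 16.9 and 16.8 FPKM in SK/EPI-siNC and at 15.96, 16.08 and 16.22 FPKM in SK/EPI-siBCRP. Its log2 change of -0.06 (95% interval -0.12 to -0.01) did not pass (adjusted p = 0.0668), although the libraries did not overlap. Scaled by the reads on genes it did pass (adjusted p = 0.0377, and 0.0424 without the mitochondrial chromosome). SLC25A40, at 5.70, 5.88 and 5.51 FPKM against 5.895, 6.805 and 6.127 FPKM, did not overlap either and had a log2 change of 0.12 (95% interval -0.01 to 0.25, adjusted p = 0.135). DBF4, at 11.5, 12.2 and 12.4 FPKM against 12.3, 12.9 and 12.5 FPKM, had a log2 change of 0.06 (95% interval -0.03 to 0.14, adjusted p = 0.269). ABCB4, with 17, 29 and 24 reads against 18, 24 and 20, had a log2 change of -0.02 (95% interval -0.12 to 0.08, adjusted p = 0.698), so that a difference was not detectable at this depth.

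**Figure D4:**
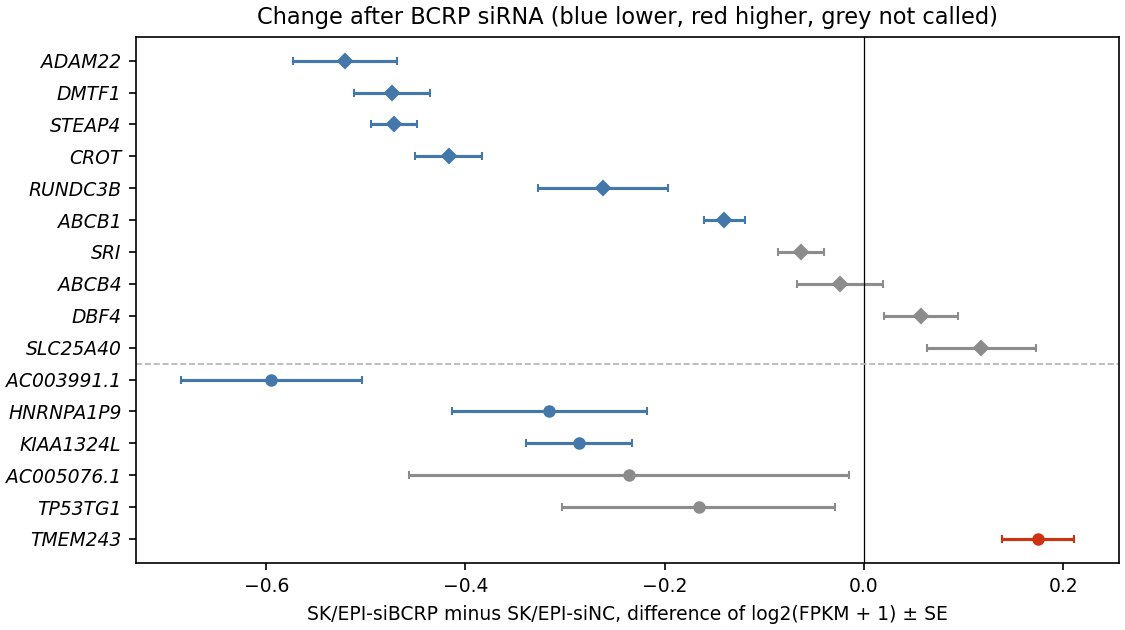
Change after BCRP siRNA, SK/EPI-siBCRP minus SK/EPI-siNC on the log2(FPKM + 1) scale (x axis, bars ± SE from limma, 3 libraries a group), of the 10 chosen genes (diamonds, above the dashed line) and the 6 other tested genes within 2 Mb (circles, below it). Blue genes were called lower, red higher and grey not called; 6 of the 10 are blue, from ADAM22 (-0.52) to ABCB1 (-0.14).

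Of the 6 other genes of the window, 3 fell, 1 rose and 2 did not pass. AC003991.1, antisense to STEAP4, went from 1.39, 1.76 and 1.57 FPKM to 0.510, 0.762 and 0.844 FPKM (log2 change -0.60, SE 0.09, adjusted p = 0.00207). KIAA1324L fell by 23.1% (log2 change -0.29, adjusted p = 0.00486), and HNRNPA1P9 went from 60, 50 and 41 reads to 29, 41 and 39 reads (log2 change -0.32, adjusted p = 0.0393). TMEM243, which overlaps the end of DMTF1 by 178 exonic bases, rose from a mean of 10.24 ± 0.373 FPKM to 11.69 ± 0.309 FPKM (SD, n = 3, log2 change 0.18, adjusted p = 0.00786). Over the 16 genes of the window the median change was -0.249, against -0.016 over 877 genes of chromosome 7. It was -0.125 within 5 Mb (38 genes) and -0.122 within 10 Mb (63 genes), both of which hold the same 16. Nothing is read from these medians, since 10 of the 16 genes were picked by hand and some of the 16 overlap on the chromosome.

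Set beside the untransfected cells of the other table, the level of ABCB1 in SK/EPI-siNC was 63.0% of that in SK/EPI and that of STEAP4 was 62.0%, while the median gene tested in both tables was at 104.2%. The other genes ranged from 79.1% (SRI) to 111.3% (DMTF1), and ADAM22 was at 98.3%. ABCG2 was at 34.1 ± 1.61 FPKM in SK/EPI and 33.0 ± 0.673 FPKM in SK/EPI-siNC (SD, n = 3). With reads scaled to all reads on genes in place of FPKM, ABCB1 was at 66.3%, STEAP4 at 65.2% and the median gene at 109.7%. These are again levels in SK/EPI-siNC as a percentage of those in SK/EPI. The part of transfection in these differences, or of any other difference between the libraries of the tables, was not tested. As a share of all reads on genes, ABCB1 took 0.133% to 0.134% in SK/EPI-siNC and 0.118% to 0.122% in SK/EPI-siBCRP, below its share in SK/EPI given above.

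The other ABCB genes with a product at the plasma membrane were hardly detected. ABCB5 had 4 reads or fewer in each library, and ABCB11, the bile salt export pump, had 0, 1 and 1 reads in SK-BR-3, 3, 6 and 6 in SK/EPI, 16, 15 and 14 in SK/EPI-siNC and 12, 13 and 10 in SK/EPI-siBCRP. The latter groups gave no call (log2 change -0.03, adjusted p = 0.528).

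Of 24 genes listed as known regulators of ABCB1, 22 were tested in the siRNA comparison. Between SK/EPI and SK-BR-3, 23 had enough reads, of which 9 were higher and 10 lower without overlap and 4 overlapped, beside 39.4% and 38.3% of all genes. After the BCRP siRNA 5 rose, 10 fell and 7 did not pass, with a median change of -0.079, where 19.4% of all genes rose and 18.7% fell. NFKB1, a subunit of NF-κB, fell by 49.0% (log2 change -0.85, SE 0.04, adjusted p = 1.38e-05) and had the largest called change of the list on either scale. NFYB and NFYA, subunits of the CCAAT-binding factor NF-Y, fell by 30.9% (log2 change -0.47, SE 0.05, adjusted p = 0.000467) and by 20.4% (log2 change -0.29, SE 0.04, adjusted p = 0.0016). These were the largest called changes on the log2(FPKM + 1) scale, which shrinks low genes. In percent KAT2B, which fell by 34.1% (adjusted p = 0.0289), and FOXO1, which fell by 31.0% (adjusted p = 0.0254), both under 2 FPKM, changed by more than NFYA and NFYB. NFYC, the other subunit, rose (log2 change 0.15, SE 0.04, adjusted p = 0.0237), and the xenobiotic receptor NR1I2, with a mean of 0.00543 FPKM or less in every group, was not tested. From SK-BR-3 to SK/EPI, mean NFYB (37.7 against 13.3 FPKM) and NFYC (9.25 against 6.64 FPKM) were lower without overlap. NFYA (7.16 against 11.2 FPKM) was higher without overlap, and NFKB1 (12.7 FPKM in both) overlapped. The part of these genes in the level of ABCB1 was not tested.

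Patterns over the 12 libraries were compared by the root mean square difference of log2(FPKM + 1) after each gene was centred on its own mean. On this measure the genes nearest to ABCB1 were not its neighbours. Among 16969 genes the nearest were CD74 (0.447), AKR1B10 (0.467), SPARC (0.526), COL14A1 (0.536) and TNFRSF11B (0.650). CD74 was at 0.0939 FPKM on average in SK-BR-3 and at 214.6 FPKM in SK/EPI, and AKR1B10 was at 0.327 and 182.9 FPKM. STEAP4 came at rank 60 (1.70), RUNDC3B at rank 907 (2.88) and ADAM22 at rank 1320 (3.00). The measure follows the size of the step from SK-BR-3, and the libraries of a group share that step. It does not require the same direction after the BCRP siRNA. There AKR1B10 (log2 change 0.28), SPARC (0.22) and COL14A1 (0.10) were called higher, unlike ABCB1 (-0.14). CD74 (-0.325), TNFRSF11B (-0.483) and the neighbour STEAP4 (-0.472) were called lower.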

How the data were processed

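RNA-seq libraries of 4 groups, 3 in each, were analysed from 2 tables of FPKM that the authors deposited, one with SK/EPI and SK-BR-3 and the other with SK/EPI-siBCRP and SK/EPI-siNC. The submitters' notes name HISAT2 2.0.5, featureCounts 1.5.0-p3, DESeq2 1.16.1 and the build hg38, without their roles, and the strand setting is not given in the sources used here. The unit was inferred: taken times the gene's exonic length (GENCODE 29, exons merged), values were whole multiples of a step set by the library, within 0.05 reads, for 100.0% of values above 0. Reads per gene were computed from these steps. Groups came from the titles.

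The 10 genes, the regulator list and the tests were chosen with earlier results of these data known. The filter on low values kept a gene that reached 10 reads, scaled to the median library, in 3 libraries and 15 reads in total. Differences, standard errors and adjusted p-values came from limma 3.58.1 (eBayes with trend, R 4.3.3) on log2(FPKM + 1) with the group alone, fitted to each table over all kept genes, with Benjamini-Hochberg adjustment and a threshold of 0.05, two-sided. The step was tested on simulated data. A count model was not the main test because the values are FPKM, and voom on the reads was an alternative. Named genes were the 10 genes, ABCG2, all others within 2 Mb that passed, ABCB5 and ABCB11, the 3 called regulators with the largest changes, the 5 nearest by pattern and fixed cell type markers. NFYC, NR1I2, KAT2B and FOXO1 were named after their values were seen. Tables were never tested against each other. Replicates differed by 1.64 to 4.27 times counting noise (chi-square per degree of freedom). Alternatives were other pseudocounts, filters, scalings, windows and thresholds, a replicate block, and each library left out. Other steps used Python 3.11.15 with pandas 2.3.3, numpy 2.4.6, scipy 1.17.1 and matplotlib 3.10.9.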

Additional observations from a re-analysis of the deposited data

How the results depend on the processing

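The 6 genes that fell after the BCRP siRNA kept that direction under all alternatives run, and 5 of them (ABCB1, STEAP4, ADAM22, CROT and DMTF1) also their call. For ABCB1 the change ranged from -0.152 to -0.137 with adjusted p up to 0.01, and from -0.152 to -0.130 with adjusted p up to 0.0103 when each library was left out. Between 5 and 7 of the 10 genes were called lower. The calls over all genes ranged from 4654 to 7043, and from 5103 to 5403 with a library left out, but were 3853 at an adjusted p under 0.01 in place of 6215. ABCB4, not called, ranged from -0.058 to 0.005 with a library left out, the latter without SK/EPI-siNC replicate 2. With the replicate number as a block (replicate block) 6 genes were lower and 5640 were called in all, and no call on the 10 genes changed. Deviations of same-numbered libraries correlated from -0.048 to 0.055, and 2 of 6 libraries correlated best with their own number, so the numbers were not taken to pair the libraries.

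The SK/EPI minus SK-BR-3 difference of ABCB1, 8.35, was 11.59 with a pseudocount of 0.1, 14.50 with 0.01 and 15.34 with voom, by the construction of these scales for a gene near 0 reads, 8.43 scaled by reads on genes and 8.51 without the mitochondrial chromosome, and 8.34 to 8.36 with a library left out. It has no value with at least 10 reads in every library. Of the 10 genes, 7 were higher without overlap under the alternatives run, except 5 of 8 under that filter, and 7 to 8 with a library left out (8, with ABCB4, without SK/EPI replicate 2). In place of 0, 1 gene was lower in every same-numbered pair (DBF4), and 1 was lower without SK-BR-3 replicate 2 or SK/EPI replicate 3 (DBF4) or without SK-BR-3 replicate 1 (SLC25A40). The median of the window, 0.452, was 0.688 with a pseudocount of 0.1, 0.313 with no filter, 0.312 with at least 10 reads in every library, 0.538 scaled without the mitochondrial chromosome, 0.813 with voom (where the median of all genes moved to 0.102), 0.322 within 0.5 Mb, 0.102 within 5 Mb and 0.015 within 10 Mb, and 0.442 to 0.511 with a library left out. As RPM, reads scaled to all reads on genes, the ABCB1 levels were 0.0350, 2008, 1331 and 1198 in SK-BR-3, SK/EPI, SK/EPI-siNC and SK/EPI-siBCRP. Causes were not tested where none is given. Depth limits what can be said of ABCB4 (15 to 31 reads a library), AC005076.1 (8 to 32) and HNRNPA1P9 (0 to 60).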
